A study of Mus musculus with 6 samples.

Results

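Cytokine receptors, with the Janus kinases, STAT factors and SOCS proteins that carry and dampen their signals, were read in haematopoietic stem cells, which sit in bone marrow and keep the blood supplied. The set holds 49 genes, each found by its symbol in a deposited table of 52183 genes: 39 receptor chains, 3 Janus kinases, 3 STAT factors and 4 members of the SOCS family. The cells were sorted by flow cytometry from bone marrow. There are 3 libraries labelled Thbs1 knockout and 3 labelled control, all from female mice aged 4 months. Thbs1 encodes thrombospondin 1, a secreted matrix glycoprotein. The labels give neither the strain nor how Thbs1 was deleted, and they do not say that each library came from a separate animal, so each p-value is set against library-to-library spread that may be technical. Levels are in FPKM (fragments per kilobase of exon per 1000000 mapped), a unit scaled by gene length. Comparisons between genes depend on the length used: the merged exons of Socs2 hold 9531 bases, and its longest coding transcript 2222.

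Cytokine receptors of this kind mostly have no kinase of their own. When a cytokine joins their chains, Janus kinases bound to the chains phosphorylate each other and the receptor, and STAT factors dock there, are phosphorylated and move to the nucleus to switch genes on. Among those genes are the SOCS family, whose proteins bind the receptors or the kinases and shut the signal down. The receptors of the IL1 and IL18 family, of IL17 and of TNF work through adaptor proteins and NF-kB instead, and the CSF1 receptor is itself a tyrosine kinase. In stem cells, such receptors are known for tying the output of blood cells to infection and inflammation.

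The libraries were comparable in the read number recovered from their FPKM values, and the targeted gene did not bear out its label. Steps between low FPKM values correspond to between 25640000 and 30890000 reads in the libraries labelled knockout and between 22730000 and 25840000 in the control libraries. Thbs1 stood at 10.8, 8.5 and 7.68 FPKM in libraries 1 to 3 labelled knockout and at 4.12, 13.8 and 2.33 FPKM in control libraries 1 to 3 (exact two-sided permutation p = 0.5, where 3 against 3 libraries cannot go below 0.1). Without control library 2 its log2 change was 1.26 (limma adjusted p = 0.0344). Thbs1 was thus not lower in the libraries labelled knockout. The table has 1 value per gene and cannot show whether a deleted stretch was lost, so directions below rest on the labels. All 8 stem cell markers examined (Procr and Slamf1 among them) averaged at least 1 FPKM, and their sum was lower in the libraries labelled knockout (230 to 261 FPKM) than in control libraries (269 to 283 FPKM), mostly through Ly6a. Not every marker followed the sum: Procr stood at 66.96, 57.74 and 53.14 against 45.23, 43.58 and 47.42 FPKM, and Fgd5 at 11.76, 11.88 and 9.63 against 9.0, 8.6 and 7.11 FPKM. Megakaryocyte markers also differed in sum, at 249.7 to 351 against 363 to 461 FPKM, mostly through Pf4. The part of either list in the results was not tested.

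The SOCS genes are direct targets of STAT factors, so the sequences before the RefSeq start of 3 of them are shown first, in the reading direction of the gene, on GRCm38.p6. Each begins 250 bases before the RefSeq start, and that of Cish runs 20 bases past it to take in both of its matches. By the GENCODE gene positions used elsewhere here, the stretches of Cish and Socs3 lie inside the gene. Only that of Socs1 lies before it. Capitals mark TTCNNNGAA, the palindrome that STAT factors are known to bind, which reads the same on both strands.
Cish, chr9:107296409-107296678, plus strand: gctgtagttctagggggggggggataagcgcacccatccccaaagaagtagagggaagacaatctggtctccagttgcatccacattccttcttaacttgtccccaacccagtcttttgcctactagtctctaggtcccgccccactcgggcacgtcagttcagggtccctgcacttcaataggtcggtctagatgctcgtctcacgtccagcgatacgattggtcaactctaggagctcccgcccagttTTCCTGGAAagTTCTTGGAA
Socs1, chr16:10785537-10785786, minus strand: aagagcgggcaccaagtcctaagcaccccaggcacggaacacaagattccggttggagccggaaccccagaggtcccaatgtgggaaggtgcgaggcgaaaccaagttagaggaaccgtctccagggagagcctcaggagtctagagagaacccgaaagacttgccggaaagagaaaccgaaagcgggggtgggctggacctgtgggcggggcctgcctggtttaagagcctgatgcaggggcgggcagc
Socs3, chr11:117969367-117969616, minus strand: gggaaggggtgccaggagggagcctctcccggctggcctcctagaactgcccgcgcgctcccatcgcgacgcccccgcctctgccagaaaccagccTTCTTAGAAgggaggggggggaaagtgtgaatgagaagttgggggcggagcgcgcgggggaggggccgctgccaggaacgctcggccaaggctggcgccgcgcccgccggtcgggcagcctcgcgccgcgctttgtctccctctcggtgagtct
Cish holds 2 matches, which begin at bases 1 and 12 of the transcript, Socs3 holds 1, and Socs1 holds 0 in this window. Over the whole window of 250 bases before to 50 after the start, 9.55% of 27025 genes with an entry hold the motif at least once in one of their entries, and 0.54% hold it 2 times or more. With several start sites, a gene has several entries. Of the 40 receptor, kinase, STAT and SOCS genes with an entry, 11 hold it (27.5%), and Cish and Il18r1 are the 2 with more than 1 match. A match is a description of the letters and does not show that a factor binds there.

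Most of these genes were expressed in the stem cells, and their levels spread over a wide range. By mean FPKM over the 6 libraries, 22 of the 49 genes stood at 10 or more, 16 between 1 and 10, 6 between 0.1 and 1, and 5 below 0.1. All 10 kinase, STAT and SOCS genes reached a mean of 1 FPKM, as did 28 of the 39 receptor chains. The highest gene was Jak1, the kinase shared by most interferon and interleukin receptors, with 60.9, 62.4 and 64.6 FPKM in libraries 1 to 3 labelled knockout and 66.3, 72.1 and 56.7 FPKM in the control libraries. After it came Ifngr1, the chain that binds interferon gamma, at 58.3, 51.8 and 53.2 against 61.5, 63.7 and 53.5 FPKM, and Tnfrsf1a, the main TNF receptor, at 46.7, 45.2 and 47.0 against 46.9, 47.5 and 49.3 FPKM. Crlf2, which binds the epithelial cytokine TSLP, followed with 44.5, 38.5 and 36.3 against 45.1, 42.5 and 44.4 FPKM, and Stat5b with 41.4, 39.0 and 42.0 against 39.1, 45.3 and 33.5 FPKM. The groups overlapped in each of these 5 genes, and their changes on the log2(FPKM + 1) scale lay between -0.15 and 0.063 (limma adjusted p between 0.428 and 0.850). Under TPM, described below with the tests, the changes of Jak1, Ifngr1, Tnfrsf1a and Crlf2 are above 0.

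**Figure D1:**
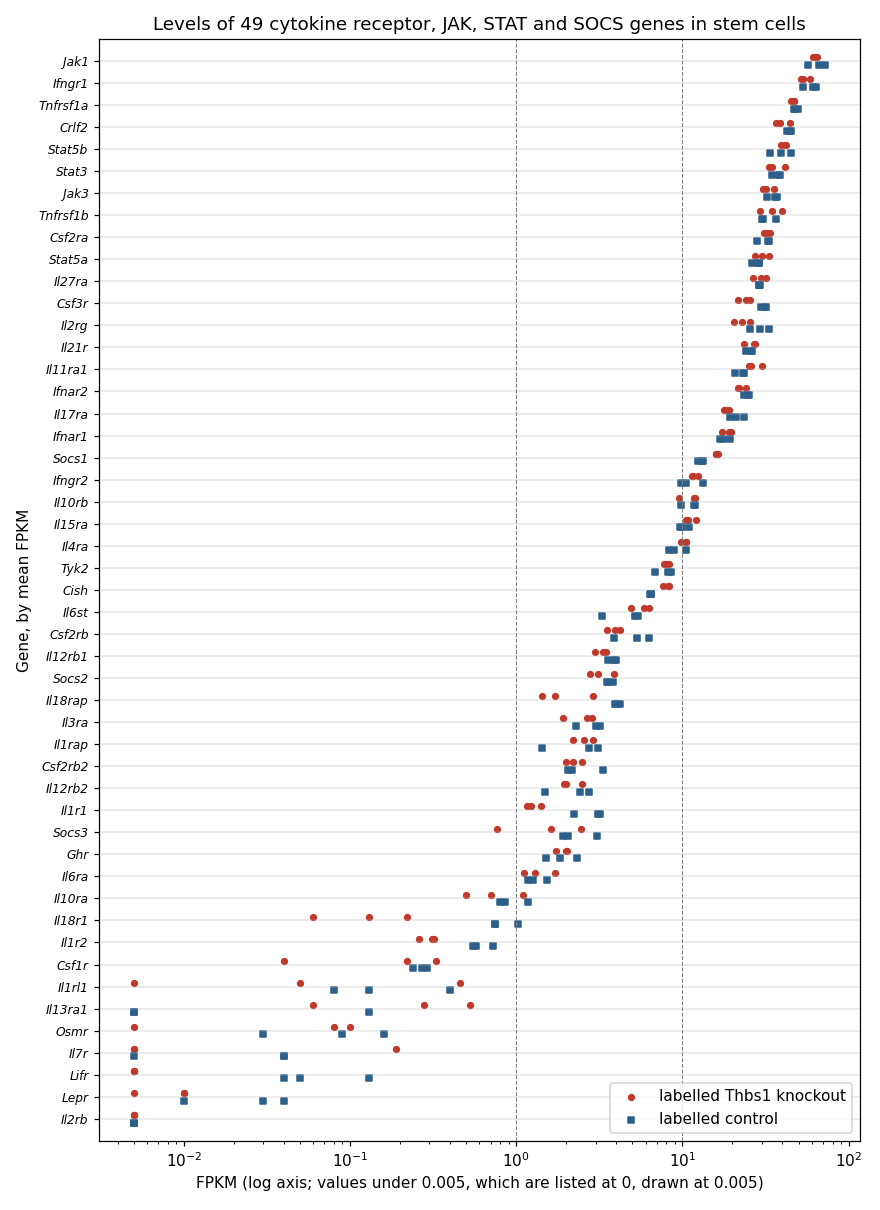
Levels of all 49 genes by library, sorted by mean FPKM on a log axis, with circles for the 3 libraries labelled Thbs1 knockout and squares for the 3 labelled control. Dashed lines mark 1 and 10 FPKM; 22 genes average at least 10 FPKM, and Il2rb is listed at 0 in every library.

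Several receptors were present with only some of their chains. Crlf2 signals together with Il7r, but Il7r was listed at 0 in 2 of 3 libraries labelled knockout and in 1 of 3 control libraries, with at most 0.19 FPKM. Il2rb, the signalling chain of the IL2 and IL15 receptors, was listed at 0 in all 6 libraries, where 3 reads would have been worth between 0.0227 and 0.0308 FPKM. Its partners were present: Il15ra, which presents IL15, averaged 11.1 ± 0.858 FPKM in libraries labelled knockout and 10.2 ± 0.675 in control libraries (SD, n = 3 each), and Il2rg, the common gamma chain, stood at more than 20 FPKM in every library. For IL10, the accessory chain Il10rb was between 10.03 and 19.1 times higher than Il10ra, the chain that binds the cytokine, over the 6 libraries. Il10ra averaged 0.767 ± 0.306 FPKM in libraries labelled knockout and 0.947 ± 0.204 in control libraries. Lifr and Osmr, which pair with Il6st, were below 0.1 FPKM on average, so that the members of the gp130 family with clear levels were Il11ra1, Il27ra and, lower, Il6ra.

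In FPKM, the receptors of GM-CSF, IL27 and IL11 had more of the cytokine-specific chain than of the shared signalling chain. These ratios depend on the length used. Merged exons hold 7277 bases in Csf2rb and 11099 in Il6st, against 2871 in Csf2ra, 3495 in Il27ra and 4471 in Il11ra1. Csf2ra, the GM-CSF binding chain, averaged 32.3 ± 1.38 FPKM in libraries labelled knockout and 31.3 ± 2.79 in control libraries. Its signalling partner Csf2rb stood at 4.22, 3.94 and 3.50 against 5.33, 6.33 and 3.87 FPKM, and Csf2rb2, the mouse beta chain that serves IL3 alone, at 2.19, 2.00 and 2.47 against 2.04, 3.33 and 2.16 FPKM. Csf2ra was thus between 4.44 and 9.18 times higher than Csf2rb, and it was between 10.4 and 17.8 times higher than Il3ra, the IL3 binding chain, which averaged 2.47 ± 0.503 against 2.84 ± 0.490 FPKM. Csf2rb and Csf2rb2 are 95.1% identical over 3108 aligned bases, so how their reads were split is uncertain. Whether reads that match both were counted is not known either, and the ratio of Csf2ra to Csf2rb rests on it. The log2 change was -0.32 ± 0.16 SE for Csf2rb (adjusted p = 0.358) and -0.11 ± 0.17 SE for Csf2rb2 (adjusted p = 0.812), both from limma; without control library 2 the change of Csf2rb was -0.19, and without control library 3 it was -0.48. Il6st, the shared chain gp130, stood at 6.32, 4.89 and 5.91 against 5.20, 5.41 and 3.30 FPKM, with a log2 change of 0.27 ± 0.17 SE (limma adjusted p = 0.473), which was 0.083 without control library 3. Il27ra averaged 29.3 ± 2.56 against 28.9 ± 0.277 FPKM. In each of the 6 libraries Il27ra was at least 4.50 times and Il11ra1 at least 4.25 times higher than Il6st, but Il6ra, the IL6 binding chain, was lower than Il6st in all 6, at 1.11 to 1.71 FPKM in libraries labelled knockout and 1.18 to 1.53 FPKM in control libraries. The common gamma chain went the other way: Il2rg was at least 1.93 times higher than Il4ra and at least 1.69 times higher than Il15ra in every library. Il21r, the IL21 receptor, averaged 25.8 ± 2.16 FPKM in libraries labelled knockout and 25.3 ± 1.15 in control libraries, close to Il2rg.

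Both chains of the interferon receptors and both TNF receptors were present. Ifnar1 and Ifnar2, the receptor of type I interferons, averaged 18.7 ± 1.20 and 22.4 ± 1.38 FPKM in libraries labelled knockout, against 17.9 ± 1.31 and 24.5 ± 1.01 in control libraries. Ifngr1 was between 4.18 and 6.23 times higher than its partner Ifngr2, which averaged 11.8 ± 0.509 against 11.2 ± 1.85 FPKM. Tnfrsf1b, the second TNF receptor, averaged 34.6 ± 5.12 against 32.5 ± 3.65 FPKM. Il17ra, the shared chain of IL17 receptors, did not overlap between groups (17.8, 18.5 and 19.2 against 20.9, 23.4 and 19.3 FPKM), but its change of -0.19 ± 0.09 SE on the log2(FPKM + 1) scale did not pass (limma adjusted p = 0.341). Il10rb and Ifnar2 share exon bases with Gm21970, which is listed at 0 in all 6 libraries.

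Csf1r and Lepr, which mark macrophages and stromal cells, were low, while Csf3r, a receptor of granulocytes, is described with the tests at a higher level. Csf1r, the macrophage growth factor receptor, had at most 0.33 FPKM, and 15.1% of its exon bases overlap Hmgxb3 on the opposite strand, a gene at 6.94 to 10.9 FPKM. The library kit does not mark strand, so the source of those reads cannot be told apart. Lepr, the leptin receptor that marks stromal cells, had at most 0.04 FPKM. Il13ra1, a chain of the IL4 and IL13 receptors, stood at 0.28, 0.06 and 0.53 FPKM in libraries labelled knockout and at 0, 0 and 0.13 FPKM in control libraries (limma without a filter, adjusted p = 0.669). Lifr, the LIF receptor, was listed at 0 in the libraries labelled knockout and stood at 0.13, 0.04 and 0.05 FPKM in control libraries. Ghr, the growth hormone receptor, was above 1 FPKM, at 1.92 ± 0.157 against 1.89 ± 0.403 FPKM. Markers of T cells summed to between 0.33 and 0.59 FPKM in libraries labelled knockout and between 0.27 and 0.95 FPKM in control libraries, with Cd3e, Cd3g and Cd8a below 0.1 FPKM throughout. B cell markers summed to 23.4 to 25.8 against 27.5 to 30.1 FPKM, nearly all from Cd79b, with Ms4a1 and Pax5 below 0.1 FPKM in every library. Stroma markers summed to 2.08 to 2.39 against 1.18 to 2.34 FPKM, mostly from Col1a2, with Pdgfra below 0.1 FPKM. Monocyte and macrophage markers summed to 334 to 367 against 356 to 399 FPKM, mostly from Lyz2. Ly6c2 had at most 0.13, Fcgr1 at most 0.33 and Adgre1 at most 0.42 FPKM. Cd68 stood at 6.0, 8.96 and 7.23 against 9.93, 13.23 and 11.95 FPKM, and Ms4a6c at 1.96, 2.38 and 1.51 against 2.67, 2.81 and 2.47 FPKM. Both were without overlap, as are 22.8% of all tested genes, and the other markers of this list overlapped. In bulk samples, fewer cells of a type and less RNA per cell cannot be told apart.

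The comparison of the libraries labelled knockout with the control libraries asks which of these genes differ with deletion of Thbs1. No gene of the set passed the test. Of the 49 genes, 38 had at least 1 FPKM in at least 3 libraries and were tested with limma on log2(FPKM + 1), with p-values adjusted by the Benjamini-Hochberg method over all 12555 genes tested. At an adjusted p below 0.05, 0 of the 38 were higher and 0 lower, where over all tested genes 0.566% were higher and 0.996% lower (1.56% in all). At an unadjusted p below 0.05 there were 7 of the 38 (18.4%), against 16.4% of all tested genes. In 9 of the 38 (23.7%) the groups kept apart, against 22.8% of all tested genes. Of the 9, 3 were higher, where the background is 12.6%, and 6 lower, where it is 10.1%. The median change of the 38 was -0.018 on the log2(FPKM + 1) scale, against 0.014 for all tested genes. The shares over both directions are thus near the background. FPKM over all genes summed to between 329433.8 and 339651.9 in libraries labelled knockout and between 373902.8 and 408725.5 in control libraries. These totals did not overlap between groups, and scaling to equal totals removes that difference. Rescaling each library to a sum of 1000000 (TPM) moved the median log2 change of all genes to 0.19. Values rose with it, so that 15277 genes, 41 of the set among them, passed the filter. Of the 15277, 2016 were called higher and 128 lower (94.0% of calls higher, in place of 36.2%). Of the 41, 5 were called: Socs1, Cish and Il11ra1 higher, and Il1r1 and Il18r1 lower. Over both directions, this share was not above that of all genes tested under TPM.

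**Figure D2:**
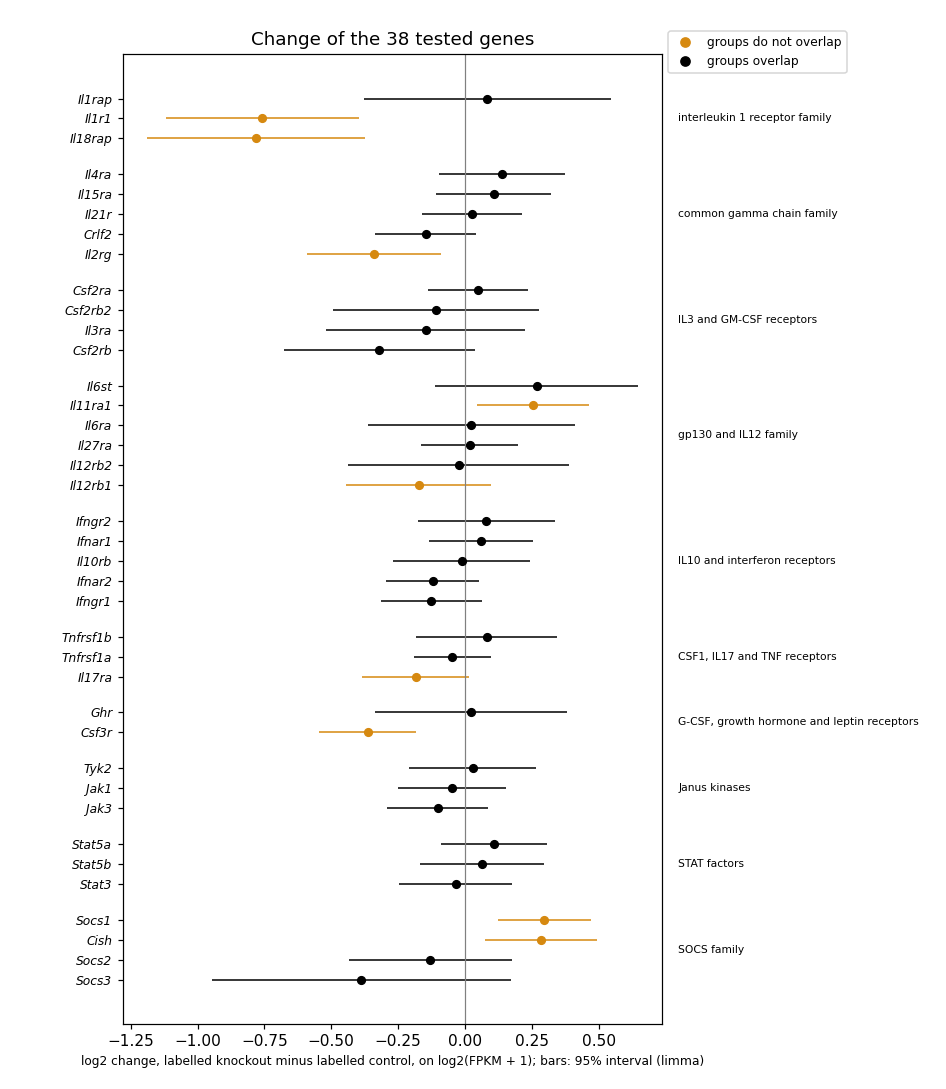
Log2 change of the 38 tested genes on log2(FPKM + 1), libraries labelled knockout minus libraries labelled control, grouped by role, with 95% intervals from limma. The 9 genes in orange have groups that do not overlap; Il1r1 and Il18rap have the lowest changes, at -0.76 and -0.78, and no gene passed an adjusted p of 0.05.

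Among the tested genes of the set, a receptor chain of IL1 and one of IL18 had the lowest changes. Il1r1 (ENSMUSG00000026072, chromosome 1, 40225080 to 40317257, plus strand, GRCm38), the signalling receptor for IL1, stood at 1.40, 1.16 and 1.23 FPKM in libraries 1 to 3 labelled knockout and at 2.23, 3.20 and 3.12 FPKM in control libraries 1 to 3. All 3 libraries labelled knockout lay below all 3 control libraries. The log2 change was -0.76 ± 0.16 SE (95% interval -1.12 to -0.40), just outside the threshold (adjusted p = 0.0554), and it passed under array weights and TPM (adjusted p = 0.0377 and 0.0319; 0.0319 to 0.250 over 14 other settings). Between 193 and 275 reads lay behind the values labelled knockout and between 367 and 468 behind the control values.

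Il18rap (ENSMUSG00000026068, chromosome 1, 40515362 to 40551705), the accessory chain that completes the IL18 receptor, stood at 1.72, 1.43 and 2.89 FPKM in libraries labelled knockout and at 3.94, 4.21 and 4.07 FPKM in control libraries. The groups kept apart, and library 3 labelled knockout lay nearest to the control libraries. Its log2 change was -0.78 ± 0.18 SE (95% interval -1.19 to -0.38; adjusted p = 0.0758), and without library 3 labelled knockout it passed at -0.98 (adjusted p = 0.0317, the lowest of a range up to 0.307). Il18r1 (ENSMUSG00000026070, chromosome 1, 40465552 to 40500854), the chain that binds IL18, was too low to be tested. It stood at 0.13, 0.06 and 0.22 FPKM in libraries labelled knockout and at 1.02, 0.75 and 0.75 FPKM in control libraries, with 7.5 to 27.2 reads against 82.1 to 127 reads. The mean in libraries labelled knockout was 0.163 times that of the control libraries. With no filter on low values the change did not pass (log2 change -0.69 ± 0.16, limma adjusted p = 0.292). TPM raises the values, which brought Il18r1 past the filter, and there it passed (log2 change -1.18, limma adjusted p = 0.0347). How much of the larger change comes from the raised values was not tested. The ligand Il18, which is no receptor but was on the list of pathway genes, averaged 31.6 ± 0.687 against 31.0 ± 1.56 FPKM.

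Il1r2, the decoy receptor that binds IL1 without signalling, was also low: 0.31, 0.32 and 0.26 FPKM in libraries labelled knockout and 0.55, 0.57 and 0.72 FPKM in control libraries. These groups were apart too, on 12.7 to 18.3 against 25.0 to 31.2 reads (limma without a filter, log2 change -0.31 ± 0.15, adjusted p = 0.664). Il1rl1, the IL33 receptor, varied within each group and overlapped, at 0.46, 0 and 0.05 against 0.40, 0.08 and 0.13 FPKM. Il1rap, the accessory chain that IL1R1 and the IL33 receptor share, showed no such difference, at 2.88, 2.20 and 2.57 against 3.12, 2.73 and 1.43 FPKM (log2 change 0.08 ± 0.21, 95% interval -0.38 to 0.54, adjusted p = 0.891). The ratio of Il1rap to Il1r1 was therefore between 1.90 and 2.09 in libraries labelled knockout and between 0.458 and 1.40 in control libraries.

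**Figure D3:**
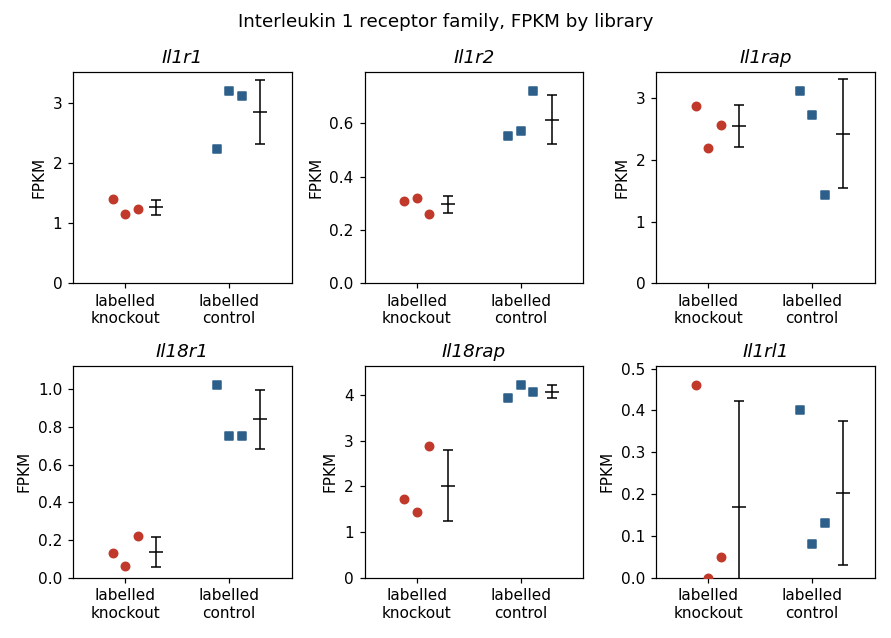
FPKM of the 6 genes of the IL1 receptor family by library, with the mean and SD of each group (n = 3 each) beside the points and bars cut at 0. Il1r1, Il1r2, Il18r1 and Il18rap do not overlap between the groups, while Il1rap and Il1rl1 do.

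Of these 6 genes, 5 lie in a cluster on chromosome 1 between 40074079 and 40551705 (GRCm38), all on the plus strand. Their order is Il1r2, Il1r1, Il1rl1, Il18r1 and Il18rap, and Il1rl2, which is not in the set, lies between Il1r1 and Il1rl1. Il1rap lies apart on chromosome 16. The genes around the cluster were looked at after these values were seen. Within 500 kb of either end, 11 protein-coding genes averaged at least 0.1 FPKM, the 5 genes of the set among them. Groups did not overlap in 4 of the 5 genes of the set and in 1 of the 6 others, which include the receptor gene Il1rl2. Over all tested genes, 22.8% do not overlap. Il1r2, Il18r1 and Mfsd9 are among the genes without overlap here but were too low to be tested, so that share does not cover them. Of the 6 others, 5 had a change below 0; the one without overlap, Mfsd9, was higher in libraries labelled knockout at 0.25 to 0.34 against 0.21 to 0.24 FPKM. Il1rl2, the IL36 receptor, which sits inside the cluster, stood at 0.73, 1.04 and 1.58 FPKM in libraries labelled knockout and at 1.64, 1.37 and 1.63 FPKM in control libraries and overlapped (adjusted p = 0.503). Map4k4, the nearest protein-coding gene of the 11 before the cluster, stood at 2.80, 2.54 and 2.93 against 3.71, 2.86 and 3.34 FPKM (adjusted p = 0.522). Of the 6 others 4 were tested, and 0 passed. All these p are from limma.

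**Figure D4:**
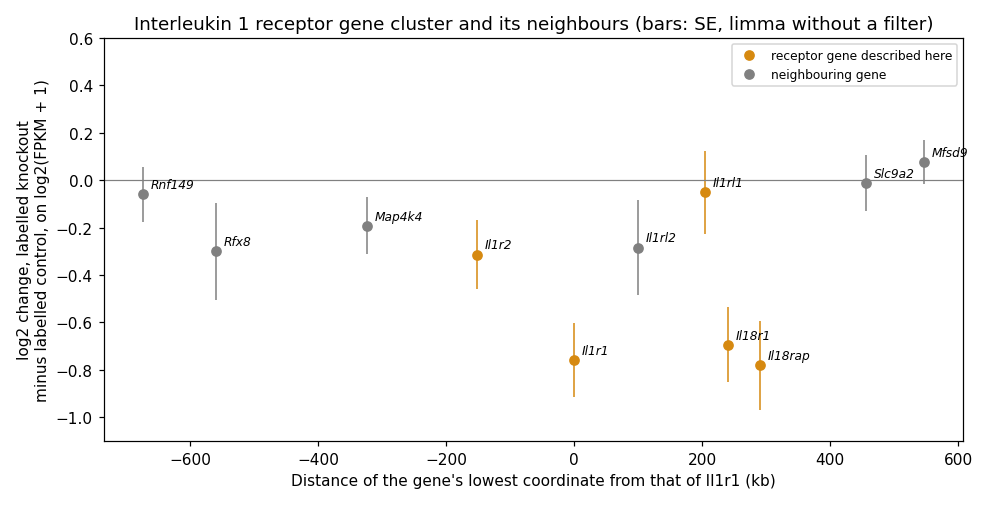
Log2 change on log2(FPKM + 1), libraries labelled knockout minus libraries labelled control, of the 11 protein-coding genes averaging at least 0.1 FPKM in and around the IL1 receptor cluster, against the distance of each gene from Il1r1 in kb. Bars are SE from limma without a filter on low values; Il1r1, Il18r1 and Il18rap lie lowest, at -0.76, -0.69 and -0.78.

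NK cells are known carriers of IL18 receptors, and basophils and mast cells of IL33 receptors. NK cell markers summed to between 2.53 and 3.88 FPKM in libraries labelled knockout and between 2.30 and 2.61 in control libraries. Ncr1 was below 0.1 FPKM in all 6, and Klrb1c made up most of the sum. Gzma stood at 1.16, 0.61 and 0 FPKM in libraries labelled knockout and was listed at 0 in every control library. Markers of mast cells and basophils summed to 100.2 to 120.1 against 92.4 to 107 FPKM, nearly all from Gata2, which stem cells also express. Other markers of this list were present too, with overlap. Cpa3 stood at 4.18, 4.63 and 3.56 against 4.42, 4.11 and 5.11 FPKM. Fcer1a stood at 0.91, 2.77 and 1.59 against 1.12, 1.61 and 3.93 FPKM, and Mcpt8 at 0.58, 1.5 and 0.43 against 0.66, 0.65 and 0.79 FPKM. The part of these cells in the levels of Il18r1, Il18rap and Il1rl1 was not tested beyond these values.

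Csf3r (ENSMUSG00000028859, chromosome 4, 126024550 to 126044440), the G-CSF receptor of granulocytes and their precursors, came second by unadjusted p. It stood at 24.2, 21.7 and 25.7 FPKM in libraries labelled knockout and at 31.4, 31.7 and 29.8 FPKM in control libraries, and the groups did not overlap. The log2 change was -0.36 ± 0.08 SE (95% interval -0.55 to -0.18; adjusted p = 0.0665). It passed in 4 of 15 other settings, with a mean of at least 5 FPKM, median-of-ratios scaling, quantile normalization and array weights (adjusted p between 0.0400 and 0.0476), and over all 15 its adjusted p lay between 0.0400 and 0.266. A GENCODE gene model for which no values were found, AC105061.2, is 96.8% identical to Csf3r over 1518 bases. Reads of Csf3r may thus be split, which could not be checked. Neutrophil markers summed to between 2.86 and 4.29 FPKM in libraries labelled knockout and between 3.77 and 3.91 FPKM in control libraries.

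Il2rg (chromosome X, 101264378 to 101268255) had 25.4, 22.9 and 20.4 FPKM in libraries labelled knockout and 29.4, 25.4 and 33.2 FPKM in control libraries. The highest library labelled knockout lay only just below the lowest control library, at 25.40 against 25.41 FPKM. The log2 change was -0.34 ± 0.11 SE (adjusted p = 0.174). The other tested chains of its receptors, Il4ra, Il15ra and Il21r, had changes of 0.14, 0.11 and 0.026. Of its exon bases, 30.5% overlap the gene model Gm20489 on the same strand, listed at 0.19 FPKM or less.

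Il11ra1 (chromosome 4, 41699989 to 41769474), the IL11 binding chain, was among the higher genes, with 30.1, 25.7 and 25.1 FPKM in libraries labelled knockout and 23.6, 23.1 and 20.6 FPKM in control libraries. The groups did not overlap (log2 change 0.25 ± 0.09 SE, adjusted p = 0.212). Its near-copies Gm13305 and Il11ra2 are 99.0% identical over 1654 and 1299 bases and stood at 0.15 FPKM or less, so reads shared among them may be split. Il12rb1, the shared chain of the IL12 and IL23 receptors, did not overlap between groups either, at 3.47, 3.33 and 2.97 against 4.00, 3.85 and 3.55 FPKM (log2 change -0.17 ± 0.12, adjusted p = 0.522). Il12rb2, the second IL12 receptor chain, overlapped at 1.93, 2.47 and 2.00 against 2.43, 2.75 and 1.49 FPKM. On its exons, 40.0% of bases overlap Serbp1 on the opposite strand, a gene at 29.3 to 35.8 FPKM, so its reads cannot be told apart from those of Serbp1.

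None of the 3 Janus kinases and 3 STAT factors passed the test, and the groups overlapped in all 6. Jak3, the partner of the common gamma chain, averaged 32.8 ± 2.56 FPKM in libraries labelled knockout and 35.3 ± 2.49 in control libraries, and Tyk2, which serves type I interferon and IL12, 7.99 ± 0.275 against 7.84 ± 0.898 FPKM. Stat3, the main factor below IL6 and G-CSF, averaged 36.3 ± 4.39 against 37.1 ± 2.21 FPKM, and Stat5a 30.3 ± 3.03 against 28.0 ± 1.48 FPKM. The intervals of these 6 changes, Jak1 and Stat5b included, all lay between -0.29 and 0.31 on the log2(FPKM + 1) scale. Stat5a and Stat5b, which answer thrombopoietin and IL3, are 90.9% identical over 2332 bases. Of the 5 further kinases and STAT factors on the list of pathway genes, 0 passed. Stat6, the factor below IL4 and looked at after its values were seen, was without overlap, at 41.29, 36.44 and 36.7 against 31.58, 32.0 and 31.03 FPKM (log2 change 0.26 ± 0.07 SE, limma adjusted p = 0.121), and it passed under TPM. Jak3 shares 404 bases with Insl3, a gene at 3.46 to 6.19 FPKM, and reads there may be split.

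None of the 4 SOCS genes passed the test, and the groups did not overlap in 2 of them, Socs1 and Cish (22.8% of all tested genes do not overlap). Socs1 (ENSMUSG00000038037, chromosome 16, 10782240 to 10785536, minus strand), which inhibits Janus kinases directly, stood at 16.37, 16.03 and 16.01 FPKM in libraries labelled knockout and at 12.48, 13.27 and 13.14 FPKM in control libraries. Cish (ENSMUSG00000032578, chromosome 9, 107296026 to 107302784, plus strand), a classical STAT5 target, stood at 8.26, 8.23 and 7.66 FPKM in libraries labelled knockout and at 6.44, 6.44 and 6.40 FPKM in control libraries. In both genes every library labelled knockout lay above every control library, by 1.24 and 1.25 times on average, and the spread within each group was small. Neither passed the test: the log2 change of Socs1 was 0.30 ± 0.08 SE (95% interval 0.12 to 0.47; adjusted p = 0.104) and that of Cish 0.28 ± 0.09 SE (0.08 to 0.49; adjusted p = 0.173). Both passed under TPM, at 0.51 and 0.50 (limma adjusted p = 0.0133 and 0.0227). These adjusted p were the lowest of 15 settings, whose highest were 0.242 and 0.359. With the shift of all genes taken off, the TPM changes were 0.32 and 0.31, and these were not tested. Of the exon bases of Cish, 11.5% overlap the opposite-strand models Gm17040 and Gm17041.

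Socs2, a brake on growth hormone and STAT5 signalling, stood at 2.78, 3.11 and 3.86 FPKM in libraries labelled knockout and at 3.56, 3.50 and 3.82 FPKM in control libraries (log2 change -0.13 ± 0.14, adjusted p = 0.687). Socs3, which restrains IL6 and G-CSF signals, stood at 2.46, 0.77 and 1.61 against 1.91, 2.04 and 3.05 FPKM (log2 change -0.39 ± 0.25, 95% interval -0.95 to 0.17, adjusted p = 0.481). Its change was -0.13 without library 2 labelled knockout and -0.62 without library 1 labelled knockout, and that of Socs2 was -0.049 without library 1 and -0.23 without library 3 labelled knockout. The groups overlapped in both. Socs2 is 99.5% identical to the gene model Gm9847 over 599 bases, which stood at 0.27 FPKM or less. Of the 2 genes with motif matches in the sequences above, Cish and Socs3, 1 had the higher and 1 the lower mean in the libraries labelled knockout, and Socs1 has 0 matches there.

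**Figure D5:**
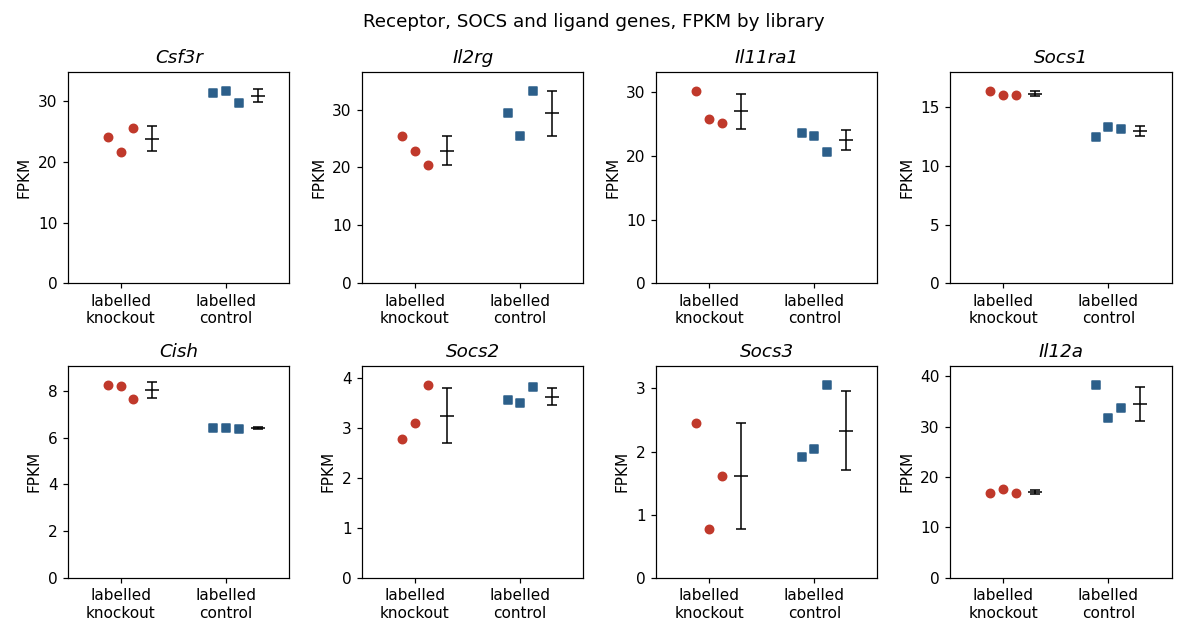
FPKM by library of 3 receptor genes, the 4 SOCS genes and the ligand gene Il12a, with the mean and SD of each group (n = 3 each). Socs1, Cish and Il11ra1 lie higher and Csf3r, Il2rg and Il12a lower in the libraries labelled knockout with no overlap, while Socs2 and Socs3 overlap.

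Other genes of these pathways were read from a list of 71 genes, which covers further kinases and STAT factors, phosphatases and adaptors, target genes, IL1 and TNF adaptors and cytokine ligands. Of these, 61 were tested, 1 fell, 0 rose and 60 did not pass (12 had an unadjusted p below 0.05). Over all tested genes, 1.56% were called and 16.4% had such a p, so both counts are near the background. The gene that fell was Il12a (ENSMUSG00000027776, chromosome 3, 68690644 to 68698547), which encodes the p35 subunit of IL12 and IL35. It stood at 16.9, 17.5 and 16.9 FPKM in libraries labelled knockout and at 38.2, 31.7 and 33.6 FPKM in control libraries, with no overlap. The log2 change was -0.97 ± 0.08 SE (95% interval -1.16 to -0.78; adjusted p = 0.000582), and it passed in all 15 other settings. Its IL12 partner Il12b was listed at 0 in 5 of 6 libraries.

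The next genes by unadjusted p were higher in all 3 libraries labelled knockout than in any control library but did not pass. Tradd, the adaptor of Tnfrsf1a, stood at 36.7, 33.4 and 30.9 against 24.2, 25.6 and 26.7 FPKM (log2 change 0.38 ± 0.08, adjusted p = 0.0635). Pim3, a survival kinase of the PIM family of STAT targets, stood at 20.04, 19.82 and 19.58 against 16.49, 15.45 and 15.67 FPKM (0.30 ± 0.07, adjusted p = 0.0870). The other PIM genes lay the other way, with overlap, and did not pass: Pim1 stood at 16.24, 11.55 and 10.8 against 15.6, 28.13 and 23.94 FPKM (-0.75 ± 0.21, adjusted p = 0.117), and Pim2 at 27.73, 23.47 and 23.85 against 27.35, 32.84 and 33.12 FPKM (-0.30 ± 0.10, adjusted p = 0.173). Without control library 1, Pim1 passed. Il15, the ligand of Il15ra, stood at 23.2, 26.1 and 25.3 against 21.3, 17.3 and 18.3 FPKM (0.38 ± 0.09, adjusted p = 0.0925). These adjusted p are from limma, and Tradd passed in 3 and Pim3 and Il15 in 1 of 15 other settings. The median change of the 61 tested genes was 0.0068 on the log2(FPKM + 1) scale.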

How the data were processed

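The table that the authors deposited holds FPKM values to 2 decimals for 52183 genes in 6 libraries, a unit known from the table's name. Libraries were made from 2 ng of RNA of cells sorted into TRIzol-LS, with the SMART-Seq v4 kit, per the labels' protocols; the kit does not mark strand. FastQC 0.11.5, STAR, edgeR, GRCm38 and mm10 are named in the submitters' processing notes. How reads were counted, and on which annotation, is not given in the sources used here.

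Of the identifiers, 52097 matched GENCODE M21 (GRCm38), which gave positions and merged exon lengths. Depth was taken as the read number that makes the values of genes with at most 400 bp of exon whole (within 0.1 read for 99.6% to 99.8% of values). Whether that number is the sequencing depth or a scaled library size is not known. Read numbers and floors of 3 reads cover counting error only, since reads amplified without molecular identifiers are not independent molecules. Chi-square per degree of freedom between libraries of a group was 7.55 to 13.9, so every pair differed beyond counting error and none was merged; this does not show that they come from separate animals.

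Genes that reached 1 FPKM in 3 or more libraries were tested on log2(FPKM + 1), which understates the change of low genes, with limma 3.58.1 in R 4.3.3 (eBayes with an intensity trend, two-sided, group as the single term). P-values were adjusted by Benjamini-Hochberg over all tested genes at 0.05, and log2 changes are knockout-labelled minus control values with moderated standard errors. For Thbs1 an exact permutation test of the 6 values was added. Near-copies come from aligning the longest coding transcript with BLAST 2.17.0, from 90% identity over 300 bases. The members, the lists and the tests were chosen with earlier results of these data known. Values in every library are given for genes whose groups do not overlap at an unadjusted p under 0.05, the 6 smallest p, the highest 5 genes, shared chains, the SOCS genes, and pathway genes that passed or had the smallest 4 unadjusted p; other genes for which they are given (the rest of the IL1 family, the genes beside it, Il12rb1, Il12rb2, Il13ra1, Il17ra, Lifr, Stat6, Pim1 and Pim2) were chosen after their values were seen. The alternatives changed the pseudocount (0.1), the filter (dropped, or mean FPKM of 5 or more), the scaling (TPM, median of ratios or quantiles) and the model (no trend, array weights or a replicate block), or left out 1 library at a time.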

Additional observations from a re-analysis of the deposited data

How the results depend on the processing

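Of the 49 genes, the number called higher was 0 in every setting except TPM (3), and the number called lower was 1 with a mean of at least 5 FPKM, with median-of-ratios scaling and with quantile normalization (each time Csf3r), 2 with array weights and with TPM, and 0 to 1 with a library left out (Il18rap without knockout-labelled library 3). Over all genes, against 71 higher and 125 lower, the counts were 8 and 16 with no filter, 24 and 65 without trend and 27 and 54 with the replicate number as a block; there were 112 higher with a mean of at least 5 FPKM and 112 with array weights, 2016 higher under TPM, and 16 to 38 higher and 43 to 77 lower with a library left out. Of the pathway list, 1 was higher with a mean of at least 5 FPKM and 1 with array weights, 8 under TPM, and 1 to 2 were lower with a library left out. Under TPM 3 genes averaged below 0.1. Thbs1 was higher without control library 2 (log2 change 1.26, limma adjusted p = 0.0344; 0.19 to 1.26 over the libraries left out). The direction turned under TPM, with no pass, for Jak1 (0.15), Ifngr1 (0.075), Tnfrsf1a (0.15), Crlf2 (0.052), Csf2rb2 (0.046) and Socs2 (0.031), where all genes shifted by 0.19; without control library 2 for Jak1 (-0.14 to 0.029 over the libraries left out) and Csf2rb2 (-0.20 to 0.052); and without control library 3 for Stat5b (-0.044 to 0.17). The cause was not tested. Same-numbered libraries did not deviate together (correlations -0.11, 0.04 and -0.08 across genes). With 3 libraries per group this cannot show whether the numbers mark a pairing, and the labels do not say. With the replicate number as a block, 0 of the 49 genes were called. Receptors below 1 FPKM rest on few reads and limit what can be seen of Il1r2 and Il18r1.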
